A study of Mus musculus with 6 samples.

Results

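The Slc30a family, whose proteins are called the ZnT zinc transporters, was described in mGLUTag cells. This immortal mouse cell line stands for the intestinal L-cell, the endocrine cell that makes glucagon-like peptide-1 (GLP-1). The members were all probes of the deposited array table whose symbol, in capitals, was SLC30A1, SLC30A2, SLC30A3, SLC30A4, SLC30A5, SLC30A6, SLC30A7, SLC30A8, SLC30A9 or SLC30A10. This gave 17 of 45281 probes, for 10 genes. The family was chosen by the intensity of Slc30a10, which had been seen to be higher at 4 h than at 16 h on these same arrays, so every difference between the time points in the family is given as a description, with no test of its own. Cells of both groups had been held in low serum, synchronized with a pulse of forskolin, which raises cyclic AMP, and returned to growth medium. RNA was taken 4 h or 16 h afterwards, with 3 arrays at each time, times the study took as the high and the low point of Arntl (Bmal1) mRNA, respectively. No genotype, drug or zinc treatment separated the groups, and a single cell line was used, so the data hold no other L-cell population. The labels do not say that the arrays of a time point came from separate cultures, so the spread between them may be technical.

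Zinc is moved in opposite directions by 2 families of transporters. The Slc30a (ZnT) proteins carry zinc out of the cytosol, either across the plasma membrane or into compartments such as the Golgi apparatus and secretory vesicles, and the Slc39a (ZIP) proteins carry it into the cytosol. Endocrine cells are known for using such transporters to load zinc into the secretory pathway, where it serves enzymes and, in the pancreatic beta cell, the packing of insulin. SLC30A10 belongs to the family by sequence, but is best known as an exporter of manganese at the cell surface, whereas SLC30A1 is the main zinc exporter there.

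The cells were checked by their markers. Of 12 genes for L-cells and peptide granules, 10 exceeded the noise of at least 3 arrays (the limit is defined with the members), and the mean intensity of Gcg, the proglucagon gene, was 19565 ± 1363 at 4 h and 11924 ± 894 at 16 h (SD, n = 3). The exceptions were Pyy and Pcsk1. Of 6 beta cell markers 3 passed (Mafa, Pdx1 and Nkx6-1), while Ins1, Ins2 and Iapp were above the limit on 0 arrays. One probe of Col1a1 was the only probe of 4 fibroblast genes to pass, and none of 4 leukocyte or 4 enterocyte genes did so. The arrays at 4 h were brighter throughout, with a mean intensity of 291 to 354 against 216 to 246 at 16 h. Over the 14941 probes that passed this limit on every array, the median ratio of mean intensities (4 h over 16 h) was 1.46, a log2 ratio of 0.55. Intensities are therefore given as deposited, and changes were taken after quantile normalization, which removes what most probes of an array share. Some markers still differed (log2, 4 h minus 16 h). Gcg changed by 0.35 (SE 0.081), Insl5 by 0.77 (SE 0.16) and Pdx1 by 0.25 (SE 0.076), without overlap, and Neurod1 by -0.35 (SE 0.12). None of these was called. The study's own limma analysis did call Insl5 higher at 4 h, with a larger change than the one given here. The 12 L-cell and granule probes that passed had a median change of 0.083 and a range of -0.35 to 0.77. Each sample was bulk RNA, so a lower level in every cell and fewer expressing cells cannot be told apart.

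Transcripts of 5 of the 10 genes exceeded the noise of all 6 arrays, namely Slc30a1, Slc30a5, Slc30a6, Slc30a7 and Slc30a10. The noise limit of an array, 9.2 to 14 intensity units, was the 99th percentile of the sizes of its below-zero values, which arise because a background had been subtracted. On 3 or more arrays 10 probes of 7 genes passed, the additional genes being Slc30a4 and Slc30a8. All probes of Slc30a2, Slc30a3 and Slc30a9 passed on fewer than 3 arrays. The 17 probes comprised 8 that passed on all arrays, 2 on 3 to 5 arrays, 2 on 1 or 2 arrays and 5 on no array. An intensity depends on the probe as well as on the transcript, so the probes of different genes were not ranked against each other.

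**Figure D1:**
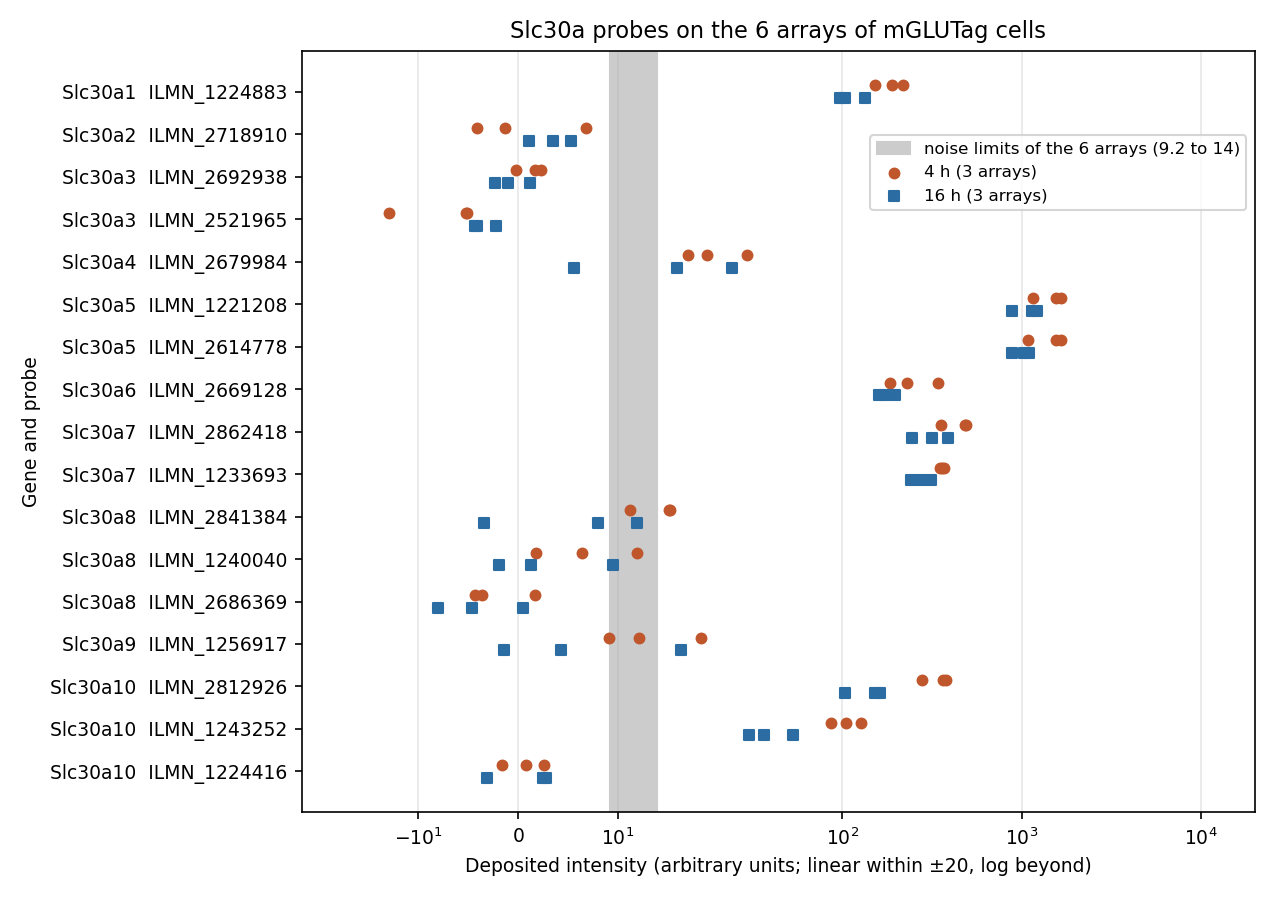
Deposited intensity (arbitrary units, linear axis within ±20 and log axis beyond) of the 17 Slc30a probes on the 3 arrays at 4 h (circles) and the 3 at 16 h (squares), with the span of the noise limits of the 6 arrays, 9.2 to 14, in grey. The 8 probes of Slc30a1, Slc30a5, Slc30a6, Slc30a7 and Slc30a10 that passed on all arrays lie wholly to the right of the grey band, and the dimmest Slc30a10 probe lies to its left.

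The description begins with the exporters of the cell surface, Slc30a10 and Slc30a1. Probe ILMN_2812926 of Slc30a10 had intensities of 379.1, 276.5 and 366.4 at 4 h and of 161.4, 152.1 and 103.4 at 16 h. Every array at 4 h was brighter than every array at 16 h, and the means were 341 ± 55.9 and 139 ± 31.2 (SD, n = 3), a ratio of 2.45. This ratio exceeded the median ratio of the detected probes by 0.75 on the log2 scale. After normalization the log2 intensity was 8.42 ± 0.03 at 4 h and 7.85 ± 0.12 at 16 h, a change of 0.57 (SE 0.078, 95% interval 0.39 to 0.75), again with no overlap. It had rank 27 among the changes toward 4 h of the 14941 probes above the limit on all arrays.

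Probe ILMN_1243252 of Slc30a10 was dimmer, with intensities of 126.9, 86.4 and 104.1 at 4 h and of 52.7, 30 and 36.4 at 16 h. The groups did not overlap on this probe either. Its mean intensities were 106 ± 20.3 and 39.7 ± 11.7 (SD, n = 3), a ratio of 2.66, which exceeded the shared ratio by 0.87 on the log2 scale. Its change in normalized log2 intensity was 0.43 (SE 0.090, 95% interval 0.22 to 0.63), which had rank 104. The offset added in the background correction shrinks the changes of dim probes, and with no background correction this probe had a change of 0.86 and ILMN_2812926 one of 0.74. The remaining probe, ILMN_1224416, read 2.6, -1.6 and 0.8 at 4 h and 2.5, -3.1 and 2.8 at 16 h, at or under the noise limit on all arrays, and so reported no level of the gene. The probes of Slc30a10 thus disagree on whether the gene was detected, and which transcripts each probe reads was not examined. A probe outside the rule, ILMN_2445236, carries the name E130106K10RIK, which a RefSeq gene table lists as a synonym of Slc30a10. Its intensities were 141.9, 58 and 106 at 4 h and 30.8, 33.9 and 26.6 at 16 h, with no overlap, and its change was 0.51 (SE 0.10).

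Slc30a1 has one probe, ILMN_1224883, which read 188.3, 151.5 and 218.8 at 4 h and 103.4, 134.4 and 96.4 at 16 h. Deposited intensities of this probe did not overlap, with means of 186 ± 33.7 and 111 ± 20.2 (SD, n = 3) and a ratio of 1.67, close to the ratio of 1.46 that the detected probes shared. After normalization the log2 values of the time points overlapped, and the change was 0.11 (SE 0.088, 95% interval -0.084 to 0.31). Leaving out each array in turn gave 0.048 to 0.17.

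Sequences of the promoters are shown for these surface exporters, since they lie on the same chromosome and are the zinc and the manganese exporter of the family. Slc30a5 is also shown, because among the windows only its own held the E-box CACGTG, a motif that clock factors bind. Each window holds the 250 bases before the annotated start in RefSeq (build GRCm38.p6), read 5′ to 3′ on the strand of the gene, with letters that match a searched motif in capitals. The windows are chr1:185454598-185454847 (plus strand) for Slc30a10, chr1:191906531-191906780 (plus strand) for Slc30a1 and chr13:100833428-100833677 (minus strand) for Slc30a5.
Slc30a10: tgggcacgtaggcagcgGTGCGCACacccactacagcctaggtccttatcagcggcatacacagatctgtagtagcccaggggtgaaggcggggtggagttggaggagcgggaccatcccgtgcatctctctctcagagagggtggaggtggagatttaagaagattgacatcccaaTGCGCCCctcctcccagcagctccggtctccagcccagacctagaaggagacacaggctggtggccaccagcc
Slc30a1: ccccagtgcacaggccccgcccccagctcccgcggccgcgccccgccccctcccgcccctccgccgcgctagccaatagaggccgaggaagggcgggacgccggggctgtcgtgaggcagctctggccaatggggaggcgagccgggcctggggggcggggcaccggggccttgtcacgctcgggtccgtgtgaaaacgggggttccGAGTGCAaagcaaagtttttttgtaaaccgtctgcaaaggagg
Slc30a5: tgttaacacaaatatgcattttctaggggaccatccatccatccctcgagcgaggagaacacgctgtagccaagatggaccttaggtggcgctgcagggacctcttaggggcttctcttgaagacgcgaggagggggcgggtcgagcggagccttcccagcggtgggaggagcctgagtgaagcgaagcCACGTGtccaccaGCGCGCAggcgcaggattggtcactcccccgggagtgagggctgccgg
The searched motifs, on both strands, were the core of the metal response element, which the zinc sensor MTF1 is known to bind (TGCACNC or TGCGCNC), and 3 elements tied to clock and cyclic AMP signalling, namely the E-box CACGTG, the D-box TTATGTAA and the cyclic AMP element TGACGTCA. The core was present in 6 of 10 windows, which cover 9 of the 10 genes, against 21.4% of the 32851 windows of the same length in the RefSeq table. Slc30a10 had 3 matches, of which a pair on opposite strands overlap each other at 233 and 232 bases before the start, and the last lay at 73 bases. Slc30a1 had 1 match at 43 bases, and Slc30a5 had 1 at 48 bases and an E-box at 61 bases. Slc30a2, Slc30a4 and one of the windows of Slc30a3 also held the core. The E-box CACGTG was in 1 of 10 windows (6.02% of all windows), and the D-box (0.819%) and the cyclic AMP element (1.55%) were in 0. Non-canonical E-boxes, which the study examined for BMAL1 in the Scgn promoter, were not searched, so other windows may hold them. The windows of the members held 53.2% to 82.8% G and C, and the part of base composition in these matches was not tested. A match of so few letters describes the window and is not evidence of binding.

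The transporters of the early secretory pathway were detected on all arrays. SLC30A5 and SLC30A6 work as a pair that loads zinc into the early secretory pathway, and SLC30A7 serves the same compartments. Probe ILMN_1221208 of Slc30a5 read 1550.5, 1160.8 and 1653.4 at 4 h and 1223.9, 1137.8 and 882.8 at 16 h, with overlap. Its change after normalization was -0.083 (SE 0.093, 95% interval -0.29 to 0.13), and -0.15 to -0.013 when each array was left out in turn. The other Slc30a5 probe, ILMN_2614778, read 1556.5, 1087.7 and 1668 at 4 h and 1104, 1028.7 and 881.6 at 16 h, with a change of -0.012 (SE 0.10, 95% interval -0.24 to 0.22). Both probes of Slc30a5 therefore overlapped between the time points on either scale, and their ratios of mean intensity, 1.35 and 1.43, lay just under the shared ratio.

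The Slc30a6 probe ILMN_2669128 read 339.7, 229.9 and 185.1 at 4 h and 173.5, 197.2 and 160.1 at 16 h. Both groups overlapped, with normalized log2 values of 8.30, 8.18 and 7.69 at 4 h, of which replicate 3 was lowest, and a change of -0.064 (SE 0.14, 95% interval -0.39 to 0.26). Without replicate 3 at 4 h the change was 0.12 (SE 0.083). That array also had the brightest 18S ribosomal RNA probes, with a mean log2 intensity of 10.5 against 6.90 to 9.22 on the others. With the 18S level as a covariate the change of Slc30a6 was 0.018 (SE 0.11). The reason for the low value was not tested. Probe ILMN_2862418 of Slc30a7 read 485, 486.6 and 353.4 at 4 h and 317, 386 and 243.2 at 16 h, with a change of -0.053 (SE 0.15, 95% interval -0.40 to 0.29). Its groups also overlapped, and its change was 0.12 (SE 0.12) without replicate 3 at 4 h and -0.21 (SE 0.13) without replicate 2 at 4 h. Probe ILMN_1233693 of Slc30a7 read 370.8, 351.7 and 358 at 4 h and 275.5, 313.8 and 242.4 at 16 h, so that its deposited intensities did not overlap. Its ratio of 1.30 was nonetheless below the shared ratio of 1.46, its normalized values overlapped, and its change was -0.14 (SE 0.087, 95% interval -0.34 to 0.055), or -0.23 (SE 0.077) without replicate 2 at 4 h.

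**Figure D2:**
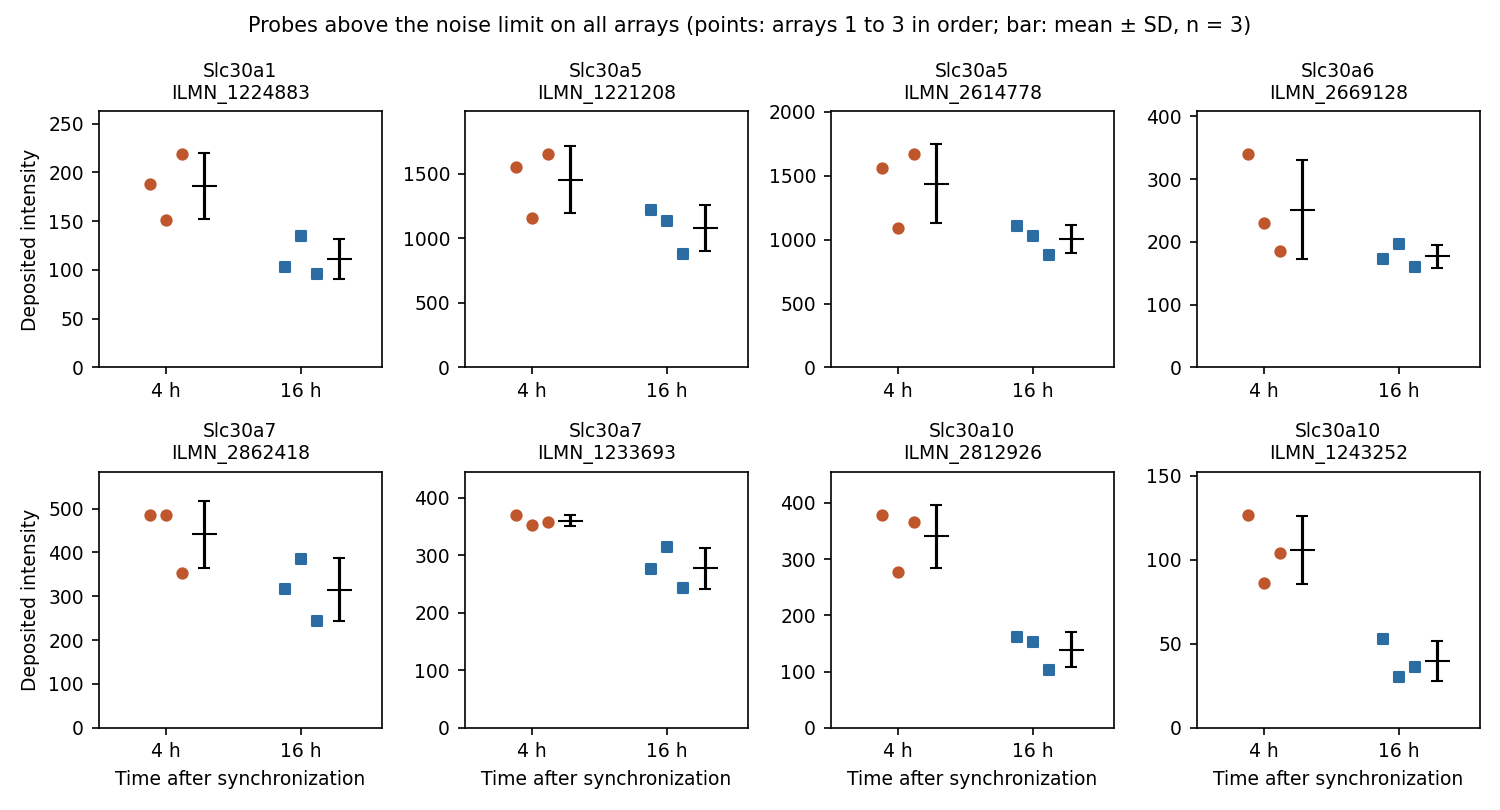
Deposited intensity (arbitrary units, axes from 0) of the 8 Slc30a probes that passed the limit on every array, with points for arrays 1 to 3 at 4 h (circles) and 16 h (squares) and bars for the mean ± SD (n = 3). All means were higher at 4 h, by a ratio of 1.30 to 1.67 for the other genes and of 2.45 and 2.66 for the Slc30a10 probes, against a shared ratio of 1.46.

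The members that load vesicles were dim. SLC30A4 and SLC30A2 move zinc into vesicles and are known from zinc secretion into milk, SLC30A3 fills synaptic vesicles, and SLC30A8 fills the insulin granules of beta cells. Slc30a4 (ILMN_2679984) read 17.1, 29.3 and 19 at 4 h and 5.6, 24.1 and 16 at 16 h, passing the limit on 3 and 2 of the 3 arrays, with a change of 0.014 (SE 0.12, 95% interval -0.26 to 0.29). The best of the 3 Slc30a8 probes, ILMN_2841384, read 15.3, 11.2 and 15.2 at 4 h and 8, -3.4 and 12 at 16 h. It passed on 2 arrays at 4 h and 1 at 16 h, and its change was 0.10 (SE 0.10, 95% interval -0.13 to 0.33). That value was -0.014 without replicate 2 at 16 h and 0.20 without replicate 3 at 16 h, and was 0.21 with an offset of 16 and 1.16 (SE 1.15) with no background correction. The other Slc30a8 probes passed on 1 array (ILMN_1240040) and on 0 (ILMN_2686369). Detection of the granule transporter of the beta cell thus rested on a single dim probe, at an intensity a few units over the limit.

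Slc30a2 (ILMN_2718910) lay between -4.1 and 6.8 over the arrays and passed on 0. The Slc30a3 probes lay between -2.3 and 2.3 (ILMN_2692938) and between -13 and -2.2 (ILMN_2521965) and also passed on 0. SLC30A9, a relative of the family that is known from mitochondrial zinc export, had the probe ILMN_1256917, which read 18.4, 9.1 and 12.2 at 4 h and 4.3, 16.4 and -1.4 at 16 h. It passed on 1 array at each time, and no change is given for it or for Slc30a2 and Slc30a3. A probe under the limit shows that no signal was detected on these arrays and does not show that the transcript is absent.

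The higher level of Slc30a10 at 4 h was not seen in the other detected members. Among the 8 other probes (6 genes) that passed on 3 or more arrays, 3 changes lay above 0 and 5 below, with a median of -0.033 and a range of -0.14 to 0.11 in normalized log2 intensity, beside a median of 0.0045 over all 17366 probes that passed. This split was not stable. With an 18S covariate 3 lay below 0 (median 0.025), as without replicate 3 at 4 h (median 0.050). Under median scaling or no normalization between arrays 0 lay below, where the detected probes as a whole also moved up. In the reported setting both detected Slc30a10 probes lay above the 95th percentile of the probes detected on all arrays, 0.24. All of the other 8 lay between it and the 5th percentile, -0.25. The 95% intervals of these 8 reached at most 0.33 (Slc30a8) with the offset of 50. That bound does not hold for the dim members with no background correction, where Slc30a8 had a change of 1.16 (SE 1.15) and Slc30a4 one of 0.20 (SE 0.74). When each array was left out in turn, with the offset kept, the 8 changes stayed between -0.23 and 0.20, and those of Slc30a4, Slc30a6, Slc30a8, ILMN_2614778 of Slc30a5 and ILMN_2862418 of Slc30a7 took either sign. On the log2 scale the time points did not overlap, with 4 h higher, for 2 of the 10 Slc30a probes, both of Slc30a10. This was so for 6.10% of all probes that passed. Nothing is read from the share of the family, since these 2 probes led to its choice. None of the 10 was lower at 4 h without overlap, against 5.33% of all. On the deposited intensities, 4 of the 8 probes above the limit on all arrays did not overlap and were higher at 4 h, against 49.2% of all such probes, so that this share in the family was that of the array.

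**Figure D3:**
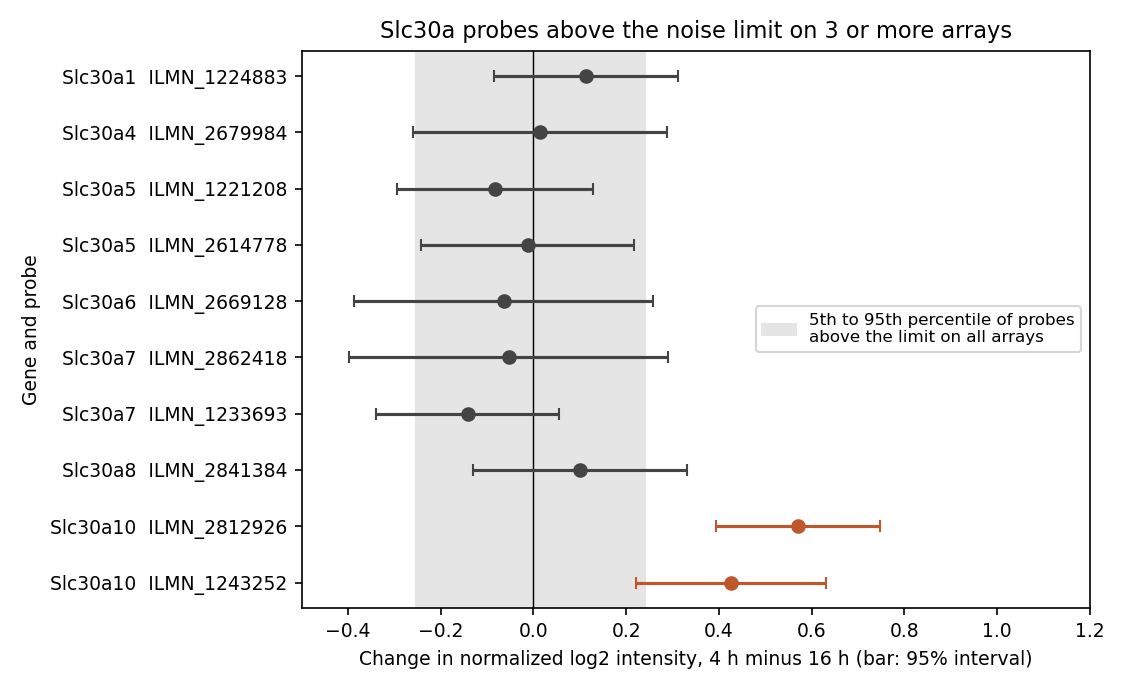
Change in normalized log2 intensity (4 h minus 16 h) of the 10 Slc30a probes that passed the limit on at least 3 arrays, with bars for the 95% interval of the limma fit and, in grey, the range from the 5th to the 95th percentile of the probes detected on all arrays (-0.25 to 0.24). The points of the Slc30a10 probes, 0.57 and 0.43, lie right of the grey range and the 8 others lie inside it.

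In the limma fit over all probes, 4 passed an adjusted p of 0.05 in either direction, 2 higher and 2 lower at 4 h, which is 0.00883% of the probes tested. None of the 17 Slc30a probes was among them, and nothing is read from that count, since the same contrast led to the choice of the family and few probes pass at this size. At an unadjusted p under 0.05 there were 1272 probes higher and 1179 lower at 4 h. With median scaling in place of quantile normalization, 832 probes were called higher and 0 lower, and with no normalization between arrays 2308 and 0 (1.84% and 5.10% of all probes called higher). Both detected Slc30a10 probes were then among those called and no other Slc30a probe was. Nothing is read from that either, since these probes led to the choice of the family and the calls under these scalings were all higher. These scalings moved the median of the detected probes to 0.30 and 0.39 and that of the other Slc30a probes to 0.31 and 0.39, both medians shifting alike.

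The Slc30a10 probes were also compared with the others array by array. Over the 6 arrays, the normalized log2 intensities of the Slc30a10 probes ILMN_2812926 and ILMN_1243252 correlated at 0.88 (Pearson), whereas the correlation of ILMN_2812926 with Slc30a1 was 0.43, with the Slc30a5 probes -0.19 and 0.026, with Slc30a6 -0.20 and with the Slc30a7 probes -0.11 and -0.67. The 6 points share 2 time points, so these values largely describe the difference between the times. Of 14940 probes compared, 57 had a correlation above 0.95 with ILMN_2812926. The 5 most alike were those of Scml2 (0.994), a Polycomb group gene, Mkln1 (0.989), Kpna1 (0.986), an importin that carries proteins into the nucleus, 2500003M10RIK (0.984), which RefSeq lists under Chtop, and Pde1a (0.983), a phosphodiesterase of cyclic nucleotides. Arntl, which encodes the clock factor BMAL1, served as a check of the time points. It read 140.7, 98.7 and 142.5 at 4 h and 42.5, 50.3 and 37.8 at 16 h, with no overlap and a change of 0.52 (SE 0.069). In its own limma analysis the study called Arntl higher at 4 h, with a larger change than this.

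The other genes of zinc handling gave no call after quantile normalization, where 0.00883% of all probes were called. Of 14 Slc39a importers, 8 genes with 13 probes passed the limit on 3 or more arrays, and their changes had a median of -0.059 and a range of -0.25 to 0.16. By limma 0 of their 29 probes passed the adjusted threshold. At an unadjusted p under 0.05 there were 0 too, beside 1272 higher and 1179 lower of all 45281 probes. Nothing is read from these counts, since few probes of the array pass and the list is short. Among the probes that passed the limit, the genes with the smallest p were Slc39a7, an importer of the endoplasmic reticulum and Golgi (probe ILMN_2603540, change -0.25, SE 0.12, adjusted p = 0.919), Slc39a13 (-0.16, SE 0.12, adjusted p = 0.953) and Slc39a3 (-0.13, SE 0.089, adjusted p = 0.949). The other Slc39a7 probes had changes of 0.16 and -0.059, so the probes of that gene did not share a direction. A further detected probe had a change of -0.17 for Slc39a13 and of -0.074 for Slc39a3.

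The genes of zinc buffering and sensing included the metallothioneins, which bind zinc and copper in the cytosol and are induced by them. Mt1 had a change of -0.11 (SE 0.11, adjusted p = 0.962), Mt2 of -0.051 (SE 0.12, adjusted p = 0.983) and Mt3 of -0.0044 (SE 0.098, adjusted p = 0.999), and Mt4 was above the limit on 1 array. For Mtf1, the factor that senses zinc and drives metallothionein genes, the probe ILMN_2544252 had a change of 0.25 (SE 0.11, adjusted p = 0.919), while the remaining probes passed on 0 and 1 arrays. None of the 7 probes of this list was called by limma, beside 0.00883% of all probes, and Tmem163 had no probe. At an unadjusted p under 0.05 there were 0, beside 1272 higher and 1179 lower of all 45281 probes. With so few probes in the list, nothing is read from these counts. The median over the 4 probes that passed was -0.028.

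After quantile normalization the manganese list was the only one of the 4 with every measured change above 0. It holds pumps that load manganese into the Golgi apparatus and carriers that move manganese besides iron or zinc. Of 8 genes, 4 genes with 7 probes passed, with a median change of 0.25 and a range of 0.0078 to 0.47. By limma 0 of 14 probes were called, beside 0.00883% of all probes. At an unadjusted p under 0.05 there were 5, all higher at 4 h, where 2.81% of all probes were higher at that p. These 5 came from 3 genes, 2 probes each of Tfrc and Slc11a2 and 1 of Slc40a1. They were the only such probes of the 4 lists, a count that fell to 3 without replicate 2 at 4 h, without replicate 2 at 16 h, under either filter on dim probes and with the replicate block. The count was 6 with array weights and with the 18S covariate, 14 with median scaling and 20 with no normalization between arrays. Without replicate 2 at 4 h, 3 probes of the lists were lower at that p. Nothing is read from these counts, since the list is short and the 5 probes came from 3 genes, all of which handle iron. Tfrc, the transferrin receptor, whose main role is iron uptake, read 2789.4, 2116.5 and 2730.1 at 4 h and 1518.2, 1321.7 and 1117.6 at 16 h on probe ILMN_2860804. The arrays did not overlap, and the change was 0.43 (SE 0.090, adjusted p = 0.36), with 0.47 on the other probe (adjusted p = 0.481). Slc40a1, which encodes the iron exporter ferroportin, read 1560.6, 1234.7 and 1581.5 at 4 h and 847.1, 914.6 and 761.4 at 16 h, with a change of 0.25 (SE 0.067, adjusted p = 0.572). Slc11a2, a carrier of divalent iron and manganese, had 3 probes that passed on every array, with changes of 0.26 (ILMN_1243129, SE 0.10, adjusted p = 0.889), 0.17 (ILMN_2665063, SE 0.071, adjusted p = 0.899) and 0.0078 (ILMN_2578829, SE 0.078, adjusted p = 0.997). Its probes thus differed in the size of the change. Of the genes for loading the Golgi apparatus, Atp2c1 had a change of 0.16 (SE 0.091, adjusted p = 0.928), with overlap. Its other probe passed on 1 array, and the probes of Atp2c2 and Tmem165 passed on 0. Slc39a8 and Slc39a14, which import manganese and zinc, passed on at most 1 array with any probe.

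Copper transport, taken for comparison, had 5 of 6 genes detected and a median change of -0.14 over 5 probes (range -0.30 to 0.070). By limma 0 of its 10 probes were called, beside 0.00883% of all probes. At an unadjusted p under 0.05 there were 0, beside 1272 higher and 1179 lower of all 45281 probes. For a list this short, nothing is read from these counts. Atox1, a copper chaperone, had a change of -0.30 (SE 0.18, adjusted p = 0.941), Ccs, the chaperone of superoxide dismutase, of -0.19 (SE 0.10, adjusted p = 0.924) and Slc31a2 of -0.14 (SE 0.070, adjusted p = 0.92). Under median scaling 4 of the 56 probes of the 4 lists were called, 2 of Tfrc, 1 of Slc40a1 and 1 of Mtf1, and with no normalization between arrays 7 were, which added 2 of Slc11a2 and 1 of Mt3 (change 0.47). These scalings called 1.84% and 5.10% of all probes higher and 0 lower, so the direction of such calls was that of the array.

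**Figure D4:**
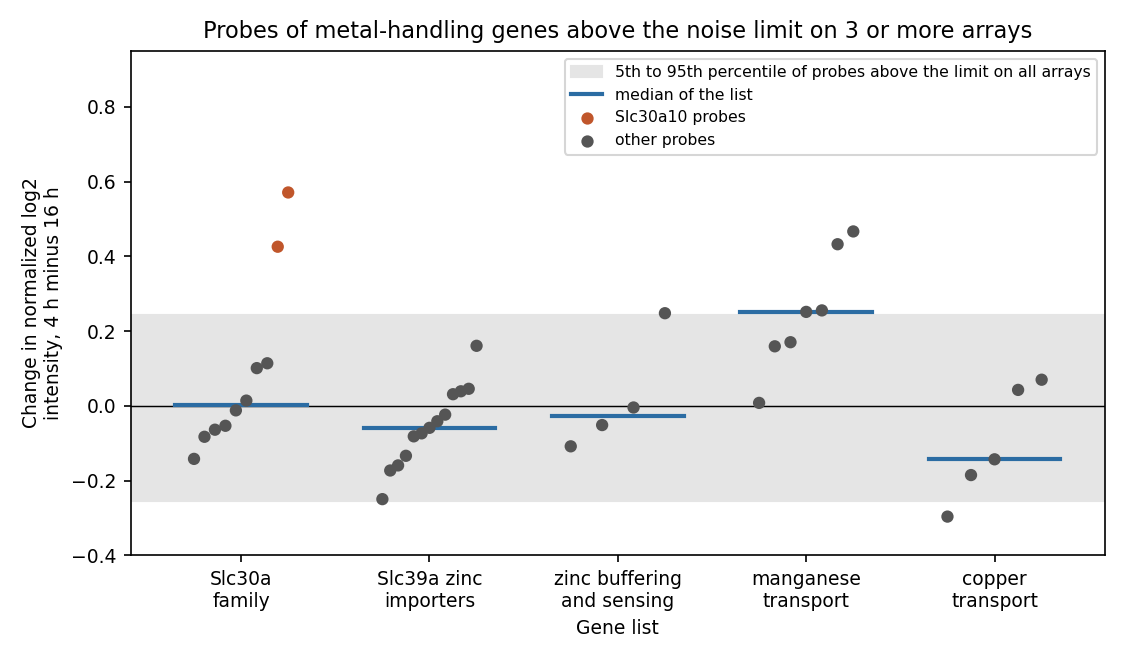
Change in normalized log2 intensity (4 h minus 16 h) of each probe that passed the limit on at least 3 arrays, for the Slc30a family and 4 lists of metal-handling genes, with horizontal lines for the list medians and, in grey, the range from the 5th to the 95th percentile of probes detected on all arrays. The medians were -0.059 for zinc importers, -0.028 for zinc buffering, 0.25 for manganese transport and -0.14 for copper transport, and the Slc30a10 probes stand apart from the rest of their family.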

How the data were processed

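Total RNA of mGLUTag cells at 4 h and 16 h after synchronization (3 samples each) was hybridized to mouse Illumina BeadChips, 1 array per sample. The authors deposited linear, background-subtracted intensities, 1 for each probe of an array (31.2% to 34.0% of values below 0) and with no normalization between arrays applied. Scanner software, slide and scan date are not given in the sources used here, and no detection p-values were used. Samples were grouped by the time in their labels.

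Intensities were corrected with normexp (offset 50, which shrinks changes of dim probes), quantile normalized and transformed to log2. Models were fitted to all 45281 probes in limma 3.58.1 (R 4.3.3) with a term for time, and p-values (two-sided) were adjusted by Benjamini-Hochberg over all probes (threshold 0.05). Changes are 4 h minus 16 h. Changes are given for probes above the noise limit (99th percentile of sign-turned below-zero values) on 3 or more arrays. Precision is limited by the number of arrays, and for one probe the smallest two-sided p of exact permutation is 0.1.

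The members and gene lists were chosen with earlier results of these data known, and the noise limit had been set on these data. Named genes were all members, the zinc buffering list, the 3 genes of smallest p in each other metal list, Gcg and Arntl. The 5 probes most correlated with the brightest Slc30a10 probe and the remaining genes of the manganese list were also named. Changes of cell markers are given where a probe that passed the limit had an unadjusted p under 0.05 in limma. Promoter windows came from RefSeq (GRCm38.p6), and no coordinates were assigned to probes. Alternatives covered background correction, normalization, filters, variance model, array weights, a replicate block, an 18S ribosomal RNA covariate and leaving out each array.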

Additional observations from a re-analysis of the deposited data

How the results depend on the processing

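The detected Slc30a10 probes were compared with the 8 other Slc30a probes that passed on 3 or more arrays. In 16 of 17 settings, the reported one included, both had a larger change than each of those 8. The exception was no background correction, where a dim Slc30a8 probe had 1.16 and the Slc30a10 probes 0.74 (ILMN_2812926) and 0.86 (ILMN_1243252). Nothing is read from that tally, since Slc30a10 was chosen for its change on these same arrays. The trended, robust variance and the replicate block also leave each change as reported, so they could not differ. ILMN_1243252 had 0.58 with an offset of 16. Median scaling gave 0.93 and 0.67 and a median of 0.31 for the other Slc30a probes, no normalization between arrays 1.02, 0.75 and 0.39. Averaging the probes of a gene, the undetected one included, gave 0.33 for Slc30a10. Leaving out each array gave 0.51 to 0.63 and 0.34 to 0.50, and -0.048 to 0.050 for the median of the others. Probes called higher and lower over the whole array were 19 and 10 with no background correction, 832 and 0 with median scaling, 2308 and 0 with no normalization between arrays, 0 and 2 with cyclic loess and 1 and 0 with a trended, robust variance. They were 0 and 0 with an offset of 16 (unadjusted p under 0.05 in limma: 1223 and 1263), at the noise-limit filter (526 and 503), at the filter on the median probe (687 and 638), and without each array (0 to 0, with 938 to 1566 and 906 to 1643 unadjusted). Slc30a probes called were 2 under median scaling and 2 with no normalization between arrays, metal-list probes 4 and 7. Nothing is read from the Slc30a count, since the same contrast led to the choice of the family. Arrays of the same replicate number had deviations from their group means that correlated at 0.25, 0.17 and -0.49. So few values of mixed sign cannot settle if the numbers pair the samples, and the labels do not say. The replicate block called 0 and 0 probes (1267 and 1213 unadjusted). A noise limit at the 95th percentile admitted Slc30a9, and one at the largest below-zero value dropped Slc30a8. The causes were not tested. The number of arrays and the dimness of most vesicle transporters limit what can be detected.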
